A study of Owenia fusiformis with 11 samples.

Results

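Isolated peaks of open chromatin were examined in the annelid Owenia fusiformis. They were the consensus peaks whose nearest other consensus peak on the same scaffold lay more than 20000 bp away, measured edge to edge, on scaffolds that held at least 100 peaks. Of 63732 consensus peaks, 744 (1.17%) met this rule, which used positions only and no measured level. They were set against the 33402 peaks (52.4% of all) with a neighbour within 2000 bp on the same scaffolds, called clustered peaks here. Chromatin accessibility was profiled with ATAC-seq, which uses the Tn5 transposase to insert sequencing adapters into DNA that is not covered by nucleosomes. The study sampled whole animals at successive stages to follow regulatory activity through embryogenesis and larval life. Libraries came from the gastrula (9 h after fertilization), the elongation stage (13 h), the mature mitraria larva (27 h) and the larva competent for metamorphosis (3 weeks). Each of these stages had 2 libraries. Each library was made from about 50000 cells, pooled from about 500 gastrulae, 300 elongation embryos, 150 mature larvae or 40 competent larvae reared in sea water, with algae as larval food. No strain, mutation or drug treatment was given for any of the 4 groups. The study describes its replicates as biological, without saying whether those of a stage came from separate fertilizations, and p-values measure the spread between these libraries.

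Oweniids develop through the mitraria, a planktonic larva that feeds and swims with a ciliary band, and a competent larva is one that is ready to metamorphose. Open chromatin marks promoters, where transcription starts, and enhancers, which bind transcription factors and act on promoters from a distance. In many animals such elements lie in groups around genes that are regulated in development, and an element far from any other can be a lone distal enhancer, the promoter of a gene in a gene-poor stretch, or a stretch in which neighbouring elements did not pass the peak filters. The positions were those of the deposited table. They were not matched to genes here, so none of the peaks is called a promoter or an enhancer.

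The level of a peak was the number of reads in it after the authors' normalization between libraries with DESeq2. It was not divided by the width of the peak, so that a wider peak can hold more reads at the same openness. Summed over all consensus peaks, levels ran from 17236023 to 19134963 normalized reads per library. The lowest values in a library were whole multiples of 1 step, the worth of 1 read, which ran from 0.388 normalized reads in elongation replicate 2 to 2.40 in competent larva replicate 1. By this step, a level of 20 would stand for about 51.6 reads in the deepest of these libraries and 8.33 in the shallowest. Values were whole multiples of the step throughout only up to 10 reads, so the first of these is approximate. Per the study's methods, both competent larva libraries and 1 gastrula library were sequenced on another platform than the remaining libraries. For the competent larva against the mature larva, stage and platform therefore cannot be told apart.

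The isolated peaks were spread over all 35 scaffolds with at least 100 peaks, at unequal density. Their nearest neighbour lay between 20003 and 151000 bp away, with a median of 26046 bp and quartiles of 22525.5 and 34037.75 bp, against a median of 1844 bp over all peaks. The distance was over 50000 bp in 59 of them and over 100000 bp in 7, and 10 were the first or last peak of a scaffold, with a neighbour on 1 side only. Scaffold 21 held 45 isolated peaks among 867 (5.19%), scaffold 28 held 24 among 481 (4.99%) and scaffold 32 held 11 among 243 (4.53%). At the other end, scaffold 5 held 14 among 3770 (0.371%) and scaffold 31 held 1 among 523 (0.191%). Scaffolds rich in isolated peaks also had few peaks per length, with 84.5 peaks per Mb on scaffold 21 and 143 on scaffold 5, which the rule partly fixes. The peaks nearest to the limit were OFUS_peak_6805 (20003 bp, mean level 96.8) and OFUS_peak_29914 (20006 bp, 59.7) on its inner side. On its outer side they were OFUS_peak_23698 and OFUS_peak_23697, which lie 19982 bp from each other (1.09 and 172.6), and OFUS_peak_58162 (19976 bp, 370.4).

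Many isolated peaks followed one another along a scaffold. Of the 744, 272 stood in runs of at least 2 consecutive isolated peaks and 472 stood alone between peaks that were not isolated. There were 26 runs of 3 or more, holding 92 peaks. The longest run had 6 peaks on scaffold 21, from 6229432 to 6571939, a stretch with 5 gaps of 23549 to 143231 bp. The next had 5 peaks each, on scaffold 17 from 10623934 to 10758738 and on scaffold 21 from 5829074 to 6020292. A mean level under 20 was found in 40.4% of the peaks in runs (110 of 272) and in 29.4% of those that stood alone (139 of 472).

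Isolated peaks had lower levels than clustered peaks at a similar width, whereas their calls in the single-library lists, given below, did not follow this order. The median of their mean level over the 8 libraries was 78.98 normalized reads, with quartiles of 3.39 and 184.7, against 186.7 in clustered peaks, with quartiles of 105.2 and 352.2. The ratio of the medians was 0.423, and the median of the isolated peaks varied by 0.828 (SD) between the replicate numbers. Each replicate number averages the stages, so this SD is not the spread of single libraries, whose medians ran from 64.22 to 84.77. Median width was 549 bp in isolated peaks and 587 bp in clustered peaks, and the middle 50% of isolated peaks spanned 348.75 to 907.25 bp. Per 1000 bp of width, the median level was 185.3 in isolated peaks and 359.7 in clustered peaks, a ratio of 0.515. The order of the sets was the same within each width class. Among peaks narrower than 300 bp, median levels were 33.89 in isolated and 92.36 in clustered peaks, and among those of 1200 bp and over they were 339.1 and 613.7 in the same order. These are descriptions of fixed sets of peaks, and no test was run over peaks, which are not replicates.

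The lower level had 2 components. First, 249 isolated peaks (33.5%) had a mean under 20, against 2961 clustered peaks (8.86%) and 9.76% of all peaks. Of these, 76 isolated peaks (10.2%) were listed at 0 in all 8 libraries, against 919 clustered peaks (2.75%). Second, the peaks with a mean of at least 20 were lower as well, with a median of 146 in 495 isolated peaks and 205.9 in 30441 clustered peaks, a ratio of 0.709. Per 1000 bp the ratio among these was 0.77. Strong peaks were fewer: a mean of 500 or more was reached by 45 isolated peaks (6.05%) and by 14.9% of clustered peaks.

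**Figure D1:**
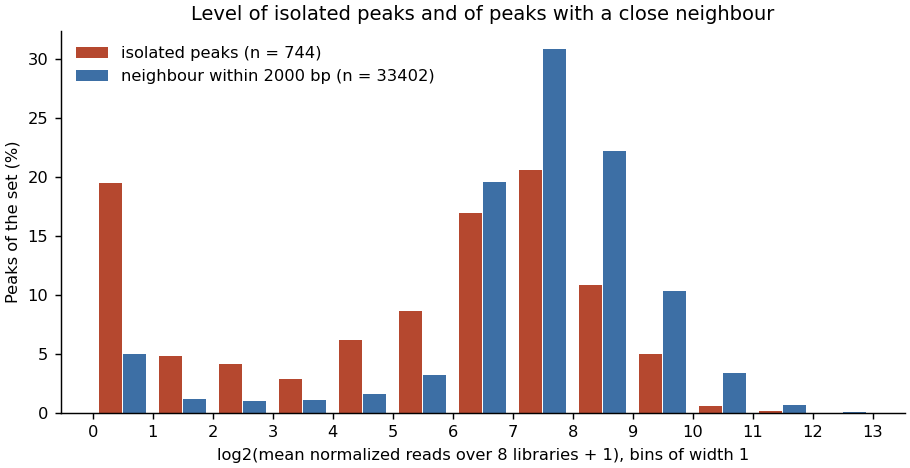
Percent of isolated peaks (left bar of each pair, n = 744) and of clustered peaks with a neighbour within 2000 bp (right bar, n = 33402) by mean level over the 8 libraries, on a log2(level + 1) axis in bins of width 1. The lowest bin held 19.5% of the isolated and 5.01% of the clustered peaks, and the fullest bin, 7 to 8, held 20.6% and 30.8% in the same order.

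The difference in level was present in every library. Isolated peaks had median levels of 76.33 and 84.77 in the gastrula libraries, 72.1 and 75.24 at elongation, 67.14 and 68.45 in mature larvae and 77.04 and 64.22 in competent larvae. Clustered peaks had medians of 194.1 and 204.8, 181 and 176.4, 171.2 and 176, and 172.6 and 162.4 at the same stages. The ratio of the medians lay between 0.389 and 0.446 in the 8 libraries, and no library's median in isolated peaks reached any library's median in clustered peaks. Among peaks with a mean of at least 20 the ratio was 0.674 and 0.682 in the gastrula, 0.666 and 0.636 at elongation, 0.692 and 0.685 in mature larvae and 0.775 and 0.72 in competent larvae. By this ratio isolated peaks with a mean of at least 20 were closest to clustered peaks in both competent larva libraries, which share their platform with 1 gastrula library. Over all peaks they were not, with 0.446 and 0.395 in competent larvae and 0.427 in elongation replicate 2.

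Level fell with distance from the nearest peak, and the fall began below the limit that defines isolated peaks. The share of peaks with a mean under 20 was 7.57% at 1000 to 2000 bp, 11.6% at 5000 to 10000 bp and 17.2% at 10000 to 20000 bp. Among isolated peaks it was 24.7% at 20000 to 25000 bp, 37.3% at 25000 to 30000 bp, 40.3% at 30000 to 50000 bp and 49.2% in the 59 peaks beyond. The median level followed the reverse order, with 108.8, 61.67, 49.3 and 23.36 normalized reads in these 4 classes. Among peaks with a mean of at least 20 the fall was weaker, with medians of 157.7, 152.2, 134.5 and 85.37 (n = 30) in the same classes. Width did not follow this order, with medians between 536 and 557 bp. Peaks with a neighbour closer than 500 bp did not continue the trend, since 11.3% of them had a mean under 20.

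**Figure D2:**
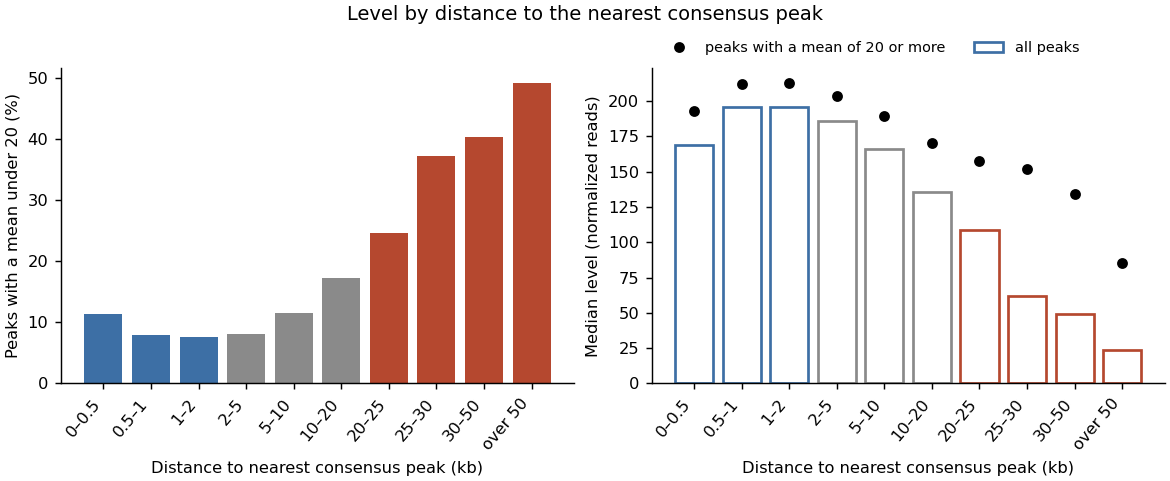
Percent of peaks with a mean level under 20 (left panel) and median level in normalized reads (right panel, bars for all peaks and points for those with a mean of at least 20) by distance to the nearest consensus peak in kb. Blue bars are clustered peaks, grey bars peaks with a neighbour 2 to 20 kb away and red bars isolated peaks, whose low share grew to 49.2% and whose median level fell to 23.36 beyond 50 kb.

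The peaks listed at or near 0 had been called as peaks in the single libraries. The deposited lists give the calls of each library by MACS2, with a fold enrichment, the ratio of reads over the local background. Around a clustered peak there is a consensus neighbour by rule, and around an isolated peak there is none. A comparison of fold enrichment between the sets is therefore not independent of the rule, whose part was not tested. Calls in all 8 lists were found in 18.8% of isolated and 13.3% of clustered peaks, and the median of the strongest fold enrichment was 4.0 in isolated and 3.5 in clustered peaks. The 249 isolated peaks with a mean under 20 overlapped a call in a median of 5 of the 8 lists, and 98.4% did so in at least 2. In clustered peaks of that level the median was 4 lists, and 95.9% were called in at least 2. The median of the strongest fold enrichment was 4.06 in these isolated peaks, against 3.95 in the 495 isolated peaks with a mean of at least 20. In clustered peaks it was 3.78 under a mean of 20 and 3.47 from 20 on. The 76 isolated peaks listed at 0 in all libraries overlapped a call in a median of 5.5 lists, with a median strongest fold enrichment of 3.96. Of them, 13 (17.1%) were called in all 8 lists. The 919 clustered peaks at 0 did so in a median of 4 lists, with 3.61, and 125 (13.6%) were called in all 8. The disagreement was thus found in both sets. In all, 32 of the 76 isolated peaks at 0 were at least 600 bp wide.

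OFUS_peak_54751 was 2010 bp wide, on scaffold 21 from 6473537 to 6475546, and was listed at 0 in every library. It was called in all 8 lists, with a fold enrichment of up to 7.9. OFUS_peak_41342 (scaffold 13, 4273340 to 4275014, 1675 bp) was likewise at 0 in every library and called in all 8 lists, with up to 6.62. Both were chosen after their values were seen. The calls and the levels of these peaks thus disagree, and which step of the processing separates them was not tested. A level of 0 at such a peak is reported as listed at 0, not as closed chromatin.

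The names of the deposited lists disagree with the samples to which they are linked for the first 2 stages: the gastrula samples hold lists named for elongation, and the elongation samples lists named for the gastrula. The levels went with the names. Of 47 clustered peaks at least 2-fold higher in both gastrula libraries than in both elongation libraries, 16 were called in both lists linked to elongation and in neither linked to the gastrula, and 0 the other way round. Of 72 clustered peaks higher at elongation by the same measure, 43 were called in both lists linked to the gastrula and in neither linked to elongation, and 0 the other way round. In the mature and the competent larva, where names and links are the same, calls went with the linked stage: of 882 clustered peaks at least 2-fold higher in both competent larva libraries, 567 were called in both of their lists and in neither of the mature larva, and 1 the other way round. Lists are given here by the sample to which they are linked, so for the first 2 stages the opposite stage is the one that goes with the levels.

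Isolated peaks with a call made up 82.7% and 86.8% in the lists linked to the gastrula, 63.6% and 48.7% in those linked to elongation, 51.2% and 54.7% in those of mature larvae and 41.7% and 58.3% in those of competent larvae. The corresponding shares of clustered peaks were 83.6% and 90.7%, 62.7% and 43.9%, 43.0% and 48.4%, and 33.7% and 48.7%. In both lists linked to the gastrula, which are named for elongation, the share was lower among isolated peaks, and in the 6 others it was higher. The total number of calls per list ran from 39906 to 133993. Where calls overlapped, the fold enrichment of the strongest one had a higher median in isolated than in clustered peaks in each of the 8 lists. It was, for example, 3.62 against 3.11 in the list linked to gastrula replicate 1 and 2.89 against 2.68 in competent larva replicate 2. As said above, this order is not independent of the rule.

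**Figure D3:**
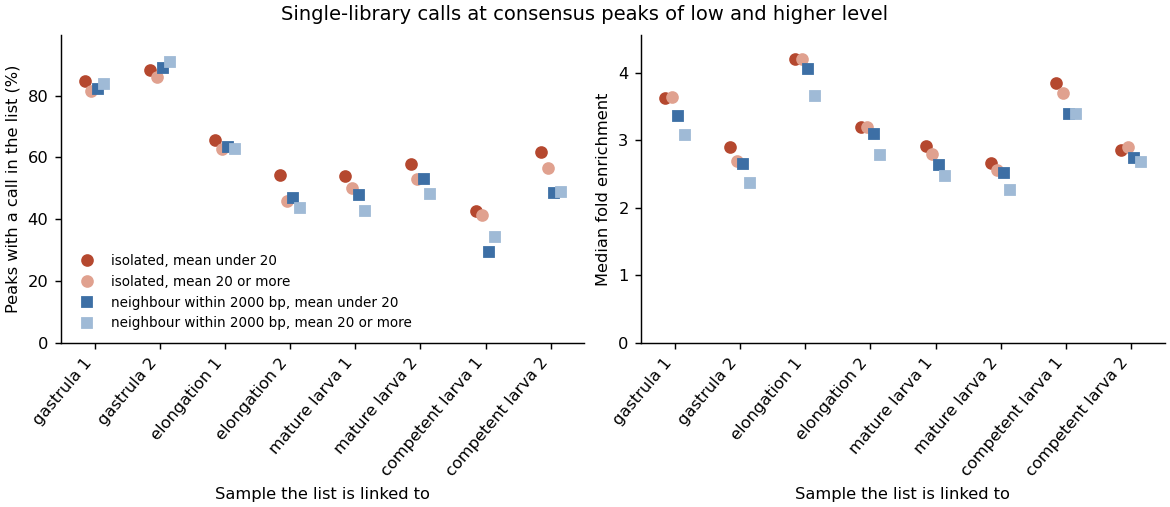
Percent of peaks that overlap a call (left panel) and median fold enrichment of the strongest overlapping call (right panel) in each of the 8 single-library lists, for isolated (red circles) and clustered peaks (blue squares) with a mean level under 20 (dark) or of at least 20 (pale). In isolated peaks of low level, calls were at least as frequent as in isolated peaks of higher level in each list, at 42.6% to 88.4%.

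Being isolated in the consensus set did not mean being isolated in the lists of single libraries. Calls in any of the 8 lists merged into 184091 regions, and 741 of the 744 isolated peaks had another such region within 20000 bp. The median isolated peak had 10 of them and the median clustered peak 17, and the nearest lay at a median of 1086.5 bp from an isolated peak. When only regions called in both libraries of a stage were kept (96198 regions), 692 isolated peaks (93.0%) still had another one within 20000 bp, with a median of 4 against 9. At a -log10 q value of at least 5 in both libraries (72177 regions), 84 isolated peaks had none. Among these 84, 28.6% had a mean under 20 and the median level was 75, against 34.1% and 79.7 in the remaining isolated peaks.

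The highest isolated peaks had reads at all stages. OFUS_peak_37 (scaffold 1, 424740 to 429417, 4678 bp wide) had 2108 and 1970 normalized reads in the gastrula, 1679 and 1881 at elongation, 2216 and 2076 in mature larvae and 2611 and 2196 in competent larvae. It was the highest of all isolated peaks, with a mean of 2092, and its highest library was 1.56 times its lowest. OFUS_peak_46457 (scaffold 15, 8294738 to 8296463) had 1255 and 1216, 1280.1 and 1129, 1108 and 1029, and 1105 and 982 normalized reads at the same stages. OFUS_peak_43922 (scaffold 14, 4853351 to 4855729) ranged from 1007 to 1933 normalized reads over the 8 libraries, with its lowest pair in the gastrula. None of these 3 was called in the 4 pairwise comparisons, but OFUS_peak_43922 was by limma's F test over the 4 stages (adjusted p = 0.0182). OFUS_peak_15742 (scaffold 4, 22694967 to 22696647), the next in level after OFUS_peak_43922, had 1607 and 1085, 1678 and 1425, 1294 and 1240.5, and 857 and 708 normalized reads. Both competent larva libraries were below the 6 others (log2 change -0.70 ± 0.19 against the mature larva, SE, limma, adjusted p = 0.0198).

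The steadiest member was OFUS_peak_3077 (scaffold 1, 25397718 to 25398259, 542 bp). It had 172.0 and 164.2 normalized reads in the gastrula, 178.2 and 158.8 at elongation, 166.8 and 158.0 in mature larvae and 175.2 and 168.5 in competent larvae. Its highest library was 1.13 times its lowest, and of neighbouring stages the competent and the mature larva did not overlap. OFUS_peak_43555 (scaffold 14) ranged from 274 to 343 normalized reads and OFUS_peak_30877 (scaffold 8) from 199 to 256. By contrast, the 5 isolated peaks farthest from any other were all low. OFUS_peak_56731 on scaffold 23, 151000 bp from its nearest neighbour, was listed at 0 in 7 libraries and at 1.48 in mature larva replicate 1. OFUS_peak_55201 (122383 bp, mean 23.4) and OFUS_peak_16594 (116891 bp, mean 55.7) were above 0 in every library, while OFUS_peak_4483 (113929 bp) was listed at 0 in all and OFUS_peak_4360 (111728 bp) reached at most 3.09. All 5 were called in single-library lists, between 2 and 7 of them.

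The widest isolated peak was OFUS_peak_47493, the first peak of scaffold 16, from 136 to 7281. At 7146 bp it was also the widest of all 63732 consensus peaks. The strongest call overlapping it had a -log10 q of 13723, against a median of 16.6 in isolated peaks, and the cause was not tested. It had 131 and 696 normalized reads in the gastrula, 158 and 974 at elongation, 408 and 357 in mature larvae and 26.3 and 33.7 in competent larvae. Both competent larva libraries were below all others, but the gastrula and elongation libraries differed more between replicates than most stages did. The next widest after OFUS_peak_37 was OFUS_peak_57562 (scaffold 23, 3230 bp), with levels between 20.6 and 102 normalized reads.

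Over development, fewer isolated than clustered peaks were highest in the gastrula. Among the 668 isolated peaks with any reads, the mean of the replicates was highest in the gastrula in 37.7%, at elongation in 21.7%, in mature larvae in 16.3% and in competent larvae in 24.3%. By replicate 1 alone the shares were 30.4%, 19.3%, 18.4% and 31.9% at these stages, and by replicate 2 alone 40.5%, 23.9%, 18.2% and 17.4%. In clustered peaks they were 46.4%, 14.9%, 16.2% and 22.5% by the mean, 38.4%, 17.9%, 17.0% and 26.7% by replicate 1 and 47.2%, 16.2%, 16.7% and 19.8% by replicate 2. For the gastrula the share was 37.7% in isolated and 46.4% in clustered peaks by the mean. It was also lower in isolated peaks by replicate 1 (30.4% against 38.4%) and by replicate 2 (40.5% against 47.2%). Within each set the shares also moved between the replicate numbers, and no test of the difference between the sets was run. After quantile normalization the gastrula share of isolated peaks was 25.1%. That of clustered peaks was not computed, so the order of the sets is given for the deposited normalization only. Among peaks with a mean of at least 20, the share at elongation was 15.6% in isolated and 13.1% in clustered peaks, so that the gap over all peaks was wider with peaks of low level included. Elongation replicate 2, with the lowest worth of 1 read, was at 0 in 94 isolated peaks, and the other 7 libraries were at 0 in 138 to 175. The part of this difference in the shares was not tested.

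The size of the changes depended on level. Among all peaks with a mean of at least 20, the highest stage mean was at least 2-fold above the lowest in 36.2% of isolated peaks (179 of 495) and in 33.8% of clustered peaks, with median log2 ranges of 0.80 in both. By level these shares went opposite ways, with 51.8% of isolated and 37.5% of clustered peaks between 20 and 100, and 22.2% (10 of 45) and 37.6% at 500 and over. Replicates of isolated peaks also differed more, with a median absolute log2 difference of 0.42 in isolated and 0.33 in clustered peaks between 20 and 100. Its part in the first of these gaps was not tested. Among the called peaks of the comparisons below, the median absolute log2 change was 1.30 in isolated and 0.92 in clustered peaks for the mature larva against elongation, 1.21 and 0.92 for the competent against the mature larva, and 1.15 and 1.00 for the competent larva against the gastrula. These medians cover only peaks that passed the test, and the sets differ in level. In the first comparison, 15 of 71 isolated and 177 of 3675 clustered calls had a mean under 20. The part of level in these medians was not tested.

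Changes between stages were tested with limma on log2(level + 1), over the 61869 peaks that were not at 0 in all libraries, and fold changes on that scale understate the change of low peaks. A peak called at an adjusted p under 0.05 is described as opening when it rose at the later stage and closing when it fell. Of the 744 isolated peaks 668 were tested, since the 76 at 0 in all libraries were not. The first comparison asked which peaks changed while the embryo elongates. At elongation against the gastrula, 6 isolated peaks were called (0.898%), 1 opening and 5 closing, against 1.71% of all tested peaks, of which 1.21% opened and 0.501% closed. The median log2 change of isolated peaks with a mean of at least 20 was -0.16, against -0.15 in all peaks of that level. Of the 668, 100 had an unadjusted p under 0.05 in limma. This was a lower share than among tested clustered peaks, where 6373 of 32483 (19.6%) did.

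The opening peak was OFUS_peak_54841 (scaffold 21, 7631861 to 7633239, 1379 bp wide). It had 167 and 256 normalized reads in the gastrula, 433 and 368 at elongation, 697 and 757 in mature larvae and 593 and 687 in competent larvae. Elongation lay above the gastrula without overlap, with a log2 change of 0.95 ± 0.20 (SE, limma, adjusted p = 0.0296), and the mature larva lay above elongation (0.86 ± 0.20, limma, adjusted p = 0.0141). Of the closing peaks, OFUS_peak_54753 (scaffold 21, 6571376 to 6571939, 564 bp) fell most. It had 466 and 448 normalized reads in the gastrula, 65.6 and 17.995 at elongation, 142 and 183 in mature larvae and 69.7 and 6.10 in competent larvae. The gastrula was high, and the mature larva lay between it and the remaining stages without overlap. The log2 change at elongation was -3.69 ± 0.76 (SE, limma, adjusted p = 0.0258), the lowest among all 57509 peaks with a mean of at least 20.

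OFUS_peak_53371 (scaffold 20) fell to 109 and 77.9 normalized reads at elongation, against 191 and 236 in the gastrula (log2 change -1.20 ± 0.27, limma, adjusted p = 0.0398). OFUS_peak_3861 (scaffold 1) fell to 348 and 325, against 560 and 589 (-0.77 ± 0.16, limma, adjusted p = 0.028). In both, the larval libraries stayed near the elongation level, at 89.4 to 115 and 276 to 366 normalized reads. These calls rested on few libraries and on the filter. With the peaks at 0 in all libraries kept in the fit, 1 isolated peak was called, which was none of the 6. This was 0.134% of isolated peaks, against 0.0596% of all peaks. Leaving out 1 library at a time kept the call of OFUS_peak_54841 in 1 of 8 cases, that of OFUS_peak_54753 in 2 and neither of the others, and kept every direction. In the single-library lists OFUS_peak_54753 and OFUS_peak_53371 were called only in the pair linked to elongation, which is named for the gastrula, and OFUS_peak_54841 was called in the pair linked to the gastrula and not in the pair linked to elongation.

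The second comparison asked what changed as the mature larva formed. In the mature larva against elongation, 71 isolated peaks were called (10.6%), 34 opening and 37 closing, against 10.5% of all tested peaks, of which 5.92% opened and 4.58% closed. The share was thus at the background. Of the 71, 15 had a mean under 20. After quantile normalization of the 8 libraries 39 were called (5.84%, against 6.57% of all tested peaks), of which 74.4% opened, where the share was 47.9% before it. With all peaks at 0 kept in the fit 12 were called (1.61%, against 2.72% of all peaks), and without mature larva replicate 1 limma called none of the 61869 tested peaks, with 102 isolated peaks at an unadjusted p under 0.05.

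OFUS_peak_31773 (scaffold 9, 5889739 to 5891523, 1785 bp wide) showed the clearest opening. It had 319 and 331 normalized reads in the gastrula, 520 and 486 at elongation, 1974 and 1681 in mature larvae and 1538 and 1226 in competent larvae. All 4 larval libraries were above all 4 embryonic ones. The log2 change from elongation was 1.85 ± 0.16 (SE, limma, adjusted p = 8.84e-05), and the call held in 6 of 8 cases with 1 library left out. OFUS_peak_61009 (scaffold 28, 1762202 to 1762691) had 41.2 and 36.6, 36.5 and 39.8, 100 and 152, and 96.3 and 82.2 normalized reads at the 4 stages. It rose by 1.67 ± 0.33 in the mature larva (limma, adjusted p = 0.00654), and the call held in 4 of 8 such cases.

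OFUS_peak_40371 and its nearest neighbour OFUS_peak_40370, both isolated, lay 20169 bp apart on scaffold 12 (15778131 to 15800739). OFUS_peak_40371 had 58.8 and 153 normalized reads in the gastrula, 64.7 and 94.3 at elongation, 299 and 312 in mature larvae and 130 and 250 in competent larvae. It rose by 1.95 ± 0.40 in the mature larva (limma, adjusted p = 0.00687), while the competent larva overlapped the gastrula. This call held in 4 of 8 cases with 1 library left out. It was lost with the peaks at 0 kept in the fit and with no mean trend. OFUS_peak_40370, the fourth highest of the isolated peaks, had 724 and 709, 807 and 648, 1396 and 1224, and 1689 and 1953 normalized reads at the 4 stages. It rose by 0.85 ± 0.16 in the mature larva (limma, adjusted p = 0.00426), and its larval libraries were above all embryonic ones.

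The closing peaks named for this comparison had low levels, which were higher again in the competent larva. OFUS_peak_63068 (scaffold 33, 943138 to 943829) had 20.7 and 84.6 normalized reads in the gastrula, 30.1 and 51.5 at elongation, 6.04 and 9.67 in mature larvae and 55.3 and 37.4 in competent larvae. Both mature larva libraries were below all others. OFUS_peak_8024 (scaffold 2) had 14.8 and 48.0, 16.0 and 51.4, 1.51 and 8.47, and 38.4 and 27.9 normalized reads at the 4 stages. OFUS_peak_31790 (scaffold 9) had 11.8 and 26.9, 37.7 and 44.8, 1.51 and 13.3, and 36.0 and 21.1. A value of 1.51 in mature larva replicate 1 is 1 read, so that these changes, -2.22 to -2.81 on the log2 scale with adjusted p between 0.0178 and 0.03 in limma, rest on counts of a few reads at the low stage. Each limma call was lost in at least 5 of the 8 cases with 1 library left out. In the single-library lists, OFUS_peak_8024 was called in mature larva replicate 2 and OFUS_peak_31790 in mature larva replicate 1. Neither was called in a competent larva list, so their list calls did not follow the levels. OFUS_peak_63068 was called in all 8 lists.

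The third comparison followed the larva as it grew until competence. In the competent larva against the mature larva, 78 isolated peaks were called (11.7%), 47 opening and 31 closing, against 15.3% of all tested peaks, of which 7.99% opened and 7.33% closed. Opening peaks made up 60.3% of these calls in isolated peaks and 51.3% in clustered peaks. The median log2 change of isolated peaks with a mean of at least 20 was 0.01, against -0.11 in clustered peaks. With 1 library left out, 6 to 83 isolated peaks were called, the fewest without mature larva replicate 1, where 1.86% of all tested peaks were called, and the most without either gastrula replicate, where 16.8% were. With all peaks at 0 kept in the fit 26 were (3.49%, against 7.76% of all peaks).

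OFUS_peak_53784 (scaffold 20, 4602072 to 4602555, 484 bp) opened most. It had 35.2 and 82.9 normalized reads in the gastrula, 69.2 and 43.4 at elongation, 20.9 and 37.2 in mature larvae and 318 and 185 in competent larvae. Both competent larva libraries were above the 6 others. The log2 change was 3.07 ± 0.45 (SE, limma, adjusted p = 0.000533), and the call held in 6 of 8 cases with 1 library left out. OFUS_peak_63068 and OFUS_peak_8024, described above, rose by 2.42 ± 0.58 and 2.79 ± 0.71 (limma, adjusted p = 0.0113 and 0.0162), and each of these calls held in 2 of the 8 cases. The competent larva lists held no call at OFUS_peak_8024. Of the closing peaks, OFUS_peak_47493, the widest, fell by 3.64 on the log2 scale with an SE of 0.69 (limma, adjusted p = 0.00299). Its fold enrichment in the lists did not follow this fall. It was 3.42 and 3.61 in competent larvae, and 3.23 and 3.01 in mature larvae, and the cause was not tested. OFUS_peak_4124 (scaffold 1, 36009520 to 36010290) fell to 31.3 and 11.6 normalized reads in the competent larva, against 67.5 and 54.2 in the mature larva (-1.61 ± 0.47, limma, adjusted p = 0.0336). OFUS_peak_54753 fell by 2.86 on the log2 scale with an SE of 0.76 (limma, adjusted p = 0.0201). These 3 closing calls held in at most 2 of the 8 cases.

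Across the whole span, isolated peaks were called less often than the background. In the competent larva against the gastrula, 172 isolated peaks were called (25.7%), 73 opening and 99 closing, against 45.3% of all tested peaks, of which 15.7% opened and 29.6% closed, and 47.9% of clustered ones. With a mean of at least 20 the shares were 31.9% of isolated and 50.6% of clustered peaks. The median log2 change of peaks with a mean of at least 20 was -0.18 in isolated and -0.34 in clustered peaks. Quantile normalization moved the median of all tested peaks to -0.09, where it was -0.32, and turned that of the tested isolated peaks to 0.03, where it was -0.16. Then 148 isolated peaks were called (22.2%, against 35.4% of all tested peaks), of which 60.1% opened, against 42.4% before. With all peaks at 0 kept in the fit 16.9% of isolated peaks were called, against 37.1% of all peaks. With 1 library left out, the share called was lower in each fit, among isolated peaks and among all tested peaks. The median log2 change of tested isolated peaks then lay between -0.183 and 0.0. Over all tested peaks it lay between -0.354 and -0.252.

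OFUS_peak_54681 (scaffold 21, 4929415 to 4931630, 2216 bp wide) rose most across the span. It had 164 and 225 normalized reads in the gastrula, 196 and 205 at elongation, 425 and 378 in mature larvae and 1272 and 1386 in competent larvae. It opened in the mature larva against elongation (1.00 ± 0.18, limma, adjusted p = 0.00419) and again in the competent larva (1.73 ± 0.18, limma, adjusted p = 5.86e-05). Over the span the log2 change was 2.78 ± 0.18 (limma, adjusted p = 1.55e-07), and this call held in all 8 cases with 1 library left out and under all 6 other settings of the fit.

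OFUS_peak_50373 and OFUS_peak_50370, the next 2, belonged to the same run of 5 isolated peaks on scaffold 17. OFUS_peak_50370 (10623934 to 10624201, 268 bp) had 33.7 and 67.5 normalized reads in the gastrula, 83.3 and 55.5 at elongation, 117 and 61.2 in mature larvae and 269.7 and 206 in competent larvae. OFUS_peak_50373 (10733523 to 10733694, 172 bp) had 19.1 and 30.8, 75.9 and 29.6, 75.01 and 72.2, and 202 and 126 at the same stages. Both were highest in the competent larva, above all other libraries, and rose by 2.278 ± 0.39 and 2.66 ± 0.44 against the gastrula (limma, adjusted p = 0.000372 and 0.000252). Between them, OFUS_peak_50371 ranged from 119 to 207 normalized reads and OFUS_peak_50372 from 235 to 494, and OFUS_peak_50374 at the end of the run stayed between 5.76 and 32.6. These 3 were chosen for their place in the run after values were seen.

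On scaffold 21, the run of 6 that ends in OFUS_peak_54753 was low otherwise. OFUS_peak_54748 and OFUS_peak_54751 were listed at 0 in every library, OFUS_peak_54749 reached at most 3.87 and OFUS_peak_54750 at most 0.388, the worth of 1 read. OFUS_peak_54752 ranged from 46.8 to 146 normalized reads. In OFUS_peak_54753 the competent larva was below the gastrula by 4.35 on the log2 scale with an SE of 0.76 (limma, adjusted p = 0.000394), the strongest closing among isolated peaks with a mean of at least 20, and the call held in all 8 cases with 1 library left out. OFUS_peak_15633 (scaffold 4, 21393348 to 21393700) fell to 2.40 and 4.08 normalized reads in the competent larva, against 34.0 and 65.3 in the gastrula (-3.53 ± 0.58, limma, adjusted p = 0.000237), and its call held in all 8 cases as well. OFUS_peak_47493 fell by 3.30 on the same scale with an SE of 0.69 (limma, adjusted p = 0.00154), and its call held in 6. In the single-library lists it was called in all 8, including both of the competent larva.

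**Figure D4:**
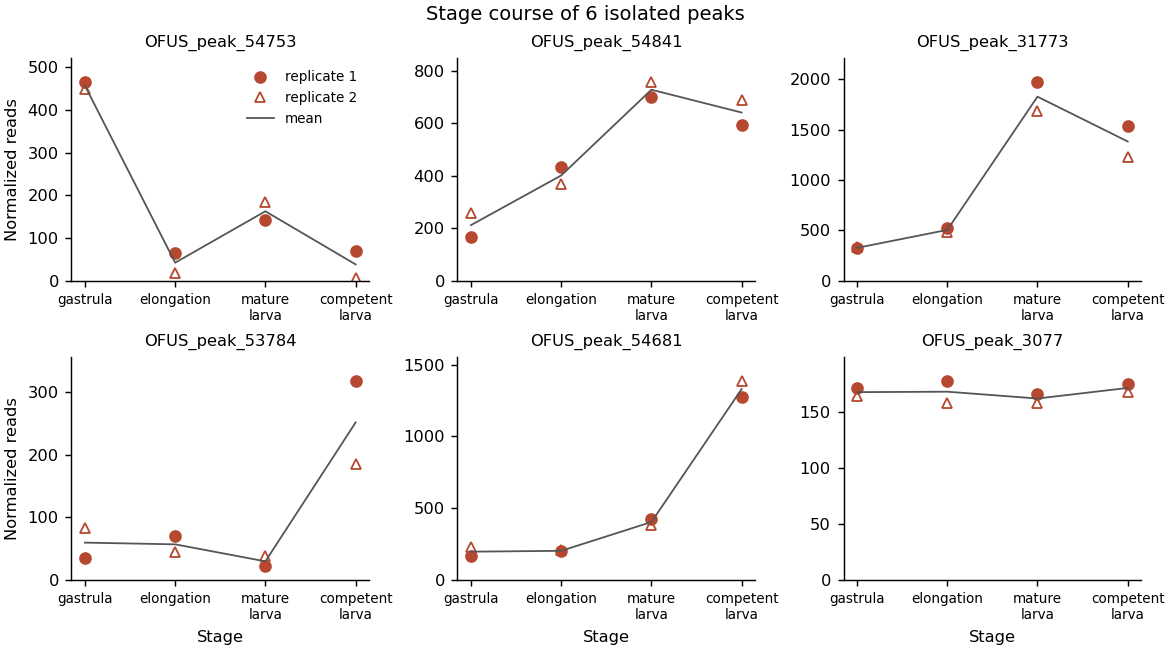
Normalized reads of 6 isolated peaks at the 4 stages in time order, with filled circles for replicate 1, open triangles for replicate 2 and lines through the stage means. OFUS_peak_54753 was highest in the gastrula (466 and 448), OFUS_peak_54841 and OFUS_peak_31773 were highest in the mature larva, OFUS_peak_53784 and OFUS_peak_54681 in the competent larva, and OFUS_peak_3077 stayed between 158.0 and 178.2.

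The lower share of calls across the whole span was found in each level class. From the competent larva against the gastrula, 8.09% of isolated and 8.67% of clustered peaks were called under a mean of 20, 25.6% and 28.0% from 20 to 100, 29.2% and 44.7% from 100 to 200, 39.1% and 58.0% from 200 to 500, and 44.4% (20 of 45) and 68.0% at 500 and over. The gap thus grew with level, and was small in the lowest 2 classes. For the competent larva against the mature larva and the mature larva against elongation, the class with the higher share was not the same throughout. Between 20 and 100, 10.7% of isolated and 5.81% of clustered peaks were called for the competent larva against the mature larva, and at 500 and over 24.4% and 30.8%. Over all 4 stages, limma's F test called 220 isolated peaks (32.9%), against 45.7% of all tested peaks and 48.4% of clustered ones. By level these shares were 16.2% of isolated and 15.7% of clustered peaks under 20, 32.1% and 25.4% from 20 to 100, and 51.1% and 74.7% at 500 and over, so isolated peaks were higher in the lowest 2 classes.

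**Figure D5:**
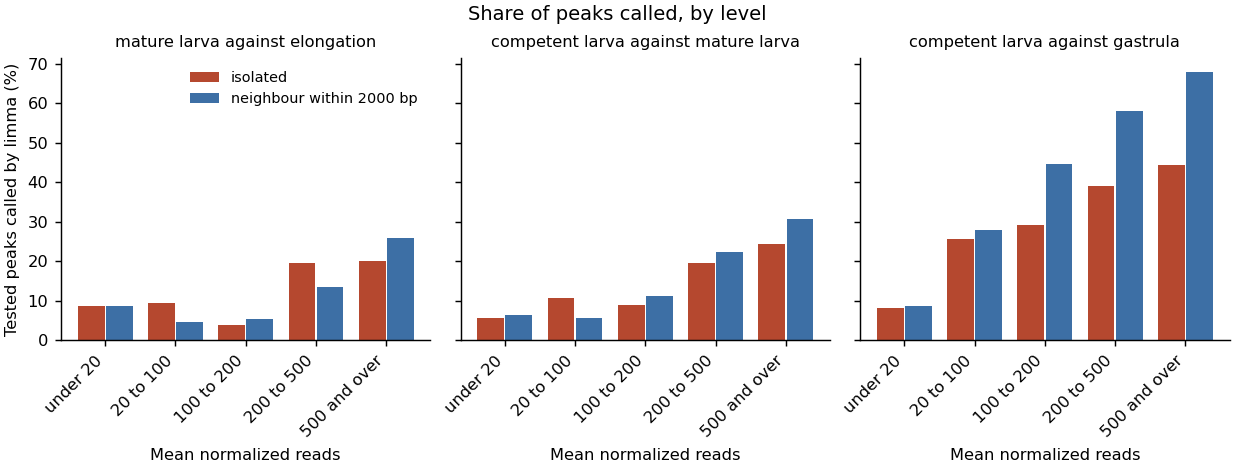
Percent of tested peaks called by limma at an adjusted p under 0.05, in either direction, by mean level in normalized reads, for isolated peaks (left bar of each pair) and clustered peaks with a neighbour within 2000 bp (right bar) in 3 comparisons. For the competent larva against the gastrula, isolated peaks had the lower share in all 5 level classes, with 39.1% against 58.0% from 200 to 500.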

How the data were processed

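ATAC-seq was measured in 8 libraries, 2 at each of 4 stages, grouped and numbered as in the labels. The 3 RNA-seq libraries were not used here. Per the study's methods, the authors trimmed and mapped reads, removed duplicates, shifted reads for the Tn5 offset and called peaks per library with MACS2 (2.2.7.1 in the processing notes). Calls that were reproducible between replicates and lay outside repeats were merged into consensus peaks. The deposited table holds a signal, the reads per consensus peak normalized by the authors with DESeq2 (1.30.1 in the processing notes) and not divided by width. The deposited lists hold calls of single libraries, with the fold enrichment (a ratio) and the -log10 of the q-value given by MACS2. For the genome build, the sources used here named none, and positions are those of the deposited table. Another 2 columns of the table belong to other samples and were not used.

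Distance was the start of the next peak minus the end of the one before. Of all consensus peaks, 196 lay on smaller scaffolds and were in neither set. A call overlapped a consensus peak by at least 1 bp. Values up to 10 reads were whole multiples of 1 step in each library (100% within 0.1 read), but only 16.2% to 53.4% of all values above 0 were. Reads were therefore not recovered, no count model was run, and the worth of 1 read covers low levels only.

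One limma model (limma 3.58.1, R 4.3.3) was fitted to log2(value + 1) of the 8 libraries over 61869 peaks, leaving out the 1863 listed at 0 in all, with a mean trend in the empirical Bayes step. Adjusted p-values are Benjamini-Hochberg over all tested peaks. Tables and figures were made in Python 3.11.15 with pandas 2.3.3 and matplotlib 3.10.9. Alternatives were a pseudocount of 8, no filter, a mean of at least 20, quantile normalization, no trend, a replicate block, each library left out, other distance limits and other overlaps. The isolated peaks, the sets and the rules were chosen with earlier results of these data known. For each comparison, up to 3 opening and 3 closing peaks are named, by largest change, among called isolated peaks whose libraries did not overlap between both stages and whose mean was at least 20. Named as well are the 5 farthest from a neighbour, the 5 highest, the 3 widest and, at a mean of at least 100, the 3 with the smallest ratio of highest to lowest library. No gene names or DNA sequences were matched to the peaks.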

Additional observations from a re-analysis of the deposited data

How the results depend on the processing

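Of 141 alternative values of 17 results, 69 stayed within the limit set for them and 72 moved further, some of them by little. The limit was 1.5 times for the share of peaks called and for counts. For levels and shares by stage it was the spread between replicates, for levels after averaging each replicate number over the stages. Whether a result turned round was not scored. After quantile normalization, the median log2 change of tested isolated peaks from gastrula to competent larva was 0.03, where it was -0.16. Limits of the libraries come first. There were 2 per stage, and a level of 20 stood for about 8.33 to 51.6 reads if the worth of 1 read holds there. Platform cannot be told apart from stage in the competent larva. Percent of isolated peaks called are given here for elongation against gastrula, mature larva against elongation, competent against mature larva, competent larva against gastrula, and any stage, in this order. With no filter on peaks at 0 they were 0.134%, 1.61%, 3.49%, 16.9% and 15.9%, against 0.0596%, 2.72%, 7.76%, 37.1% and 29.3% of all peaks. Quantile normalization gave 5.84% and 6.74% for mature larva against elongation and competent against mature larva, against 6.57% and 10.3% of all tested peaks. No trend gave 0% (98 at an unadjusted p under 0.05), 2.4% and 4.34% for the first 3. Over all tested peaks the last 2 of these were 2.61% and 7.06%. For the first, a fit to peaks with a mean of at least 20 gave 2.02%, against 2.7% of all peaks of that level. Isolated peaks over 30000 bp from a neighbour gave 0.459%, against 1.71% of all tested peaks. Over all tested peaks, no trend called 1 peak for the first comparison and no filter 38, where 1058 are reported. Leaving out 1 library gave 0 to 2.1%, 0 to 10.9%, 0.898% to 12.4%, 14.8% to 22.5% and 15% to 31.7%; the lone library is then assumed to vary like the others. The first comparison had 0 calls without elongation replicate 2 and without either mature larva replicate, with 71 to 75 at an unadjusted p under 0.05, and its 14 calls without elongation replicate 1 shared 0 with the 6 reported.

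With replicate number as a block, 12 isolated peaks (1.8%) were called at elongation against the gastrula, against 3.13% of all tested peaks. The other 4 shares of isolated peaks moved by less than 1.5 times. The correlation of replicate deviations between stages was -0.00333 to 0.241, so the numbers are not taken as pairs.

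With a limit of 15000 bp, 1472 peaks were isolated, with a median width of 557 bp, a median level of 103.1 and a ratio to clustered peaks of 0.552. With 30000 bp, 250 were, with 539 bp, 40.5 and 0.217, and 18.3% of them were highest in the mature larva. On all scaffolds the median width was 542 bp and the ratio 0.419, and with clustered peaks defined by 1000 bp the ratio was 0.435. By single replicate number, the median level was 77.47 to 78.64 and the ratio 0.416 to 0.421. The shares highest in each stage, from gastrula to competent larva, were 30.4% to 40.5%, 19.3% to 23.9%, 18.2% to 18.4% and 17.4% to 31.9%. Quantile normalization gave 25.1%, 17.4% and 25.4% highest in the gastrula, elongation and mature larva, and a mean of at least 20 gave 15.6% at elongation and 18% in the mature larva. The gastrula was thus not the most frequent stage after quantile normalization. Isolated peaks with a call made up 84.7%, 56.1%, 53.0% and 50.0% by stage; exchanging the lists of gastrula and elongation gave 56.1% and 84.7%, an overlap of at least 50% of the peak 66.0%, 27.7%, 35.1% and 28.7%, and a -log10 q of at least 5 gave 72.5%, 43.1%, 39.1% and 36.9%. Where a cause is not stated, the cause was not tested.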
